A study of Homo sapiens with 6 samples.

Results

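The metallothioneins MT1E, MT1F, MT1G, MT1H, MT1M, MT1X, MT2A and MT3, the zinc-sensing transcription factor MTF1 and the zinc exporter SLC30A1 were followed in WM-266-4 melanoma cells made to express CT16. These 10 genes were taken by symbol, and every probe annotated to them was used, which gave 13 of the 48803 probes and 10 of the 18665 named genes on the array. WM-266-4 is an established human melanoma line. The CT16 group was 3 replicates of cells that stably carried the plasmid pEXPR-IBA103 with the cDNA of CT16 (cancer-testis antigen 16, gene symbol PAGE5, of a class of proteins normally made mainly in testis and placenta). The control group was 3 replicates of the same line that carried the intact vector, and the comparison asks which transcripts differ once CT16 is made. The sample labels number the replicates and do not say whether each was a separate culture. Both groups were selected with G418 and grown in DMEM with fetal bovine serum, and the sources do not say whether the stable lines were clones or pools, so the plasmid and the line that grew out with it cannot be told apart. Total RNA of each replicate was hybridized to its own Illumina Human-6 array, which reads 1 colour from beads.

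Metallothioneins are small, cysteine-rich proteins that bind zinc and copper and can bind cadmium and platinum, and they also react with oxidants. Their genes lie in a cluster on chromosome 16 and are switched on when free zinc enters the cell: zinc binds the zinc finger protein MTF1, which then binds short metal response elements in front of the metallothionein genes and of SLC30A1, whose product carries zinc out of the cell. Glucocorticoids, inflammatory cytokines and oxidative stress are further known inducers. In cultured melanoma and other tumor cells, high metallothionein levels have been linked to tolerance of metals and of platinum drugs.

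The sequence just before the gene start shows how densely matches to the metal response element can lie in this family, and is printed for the genes that held a match. RefSeq promoter sequences of assembly GRCh38.p14 were used for 5 of the 10 genes, namely MT2A, MT1X, MT1H, MTF1 and SLC30A1. For MT1E, MT1F, MT1G, MT1M and MT3 no promoter sequence was at hand. Each sequence is the 250 bases before the annotated start, 5′ to 3′ on the strand of the gene, and capitals mark matches to the core of the metal response element, TGCACNC or TGCGCNC on either strand. The windows are chr16:56608334-56608583 on the plus strand for MT2A, chr16:56682220-56682469 on the plus strand for MT1X, chr16:56669564-56669813 on the plus strand for MT1H and chr1:211579162-211579411 on the minus strand for SLC30A1.
MT2A: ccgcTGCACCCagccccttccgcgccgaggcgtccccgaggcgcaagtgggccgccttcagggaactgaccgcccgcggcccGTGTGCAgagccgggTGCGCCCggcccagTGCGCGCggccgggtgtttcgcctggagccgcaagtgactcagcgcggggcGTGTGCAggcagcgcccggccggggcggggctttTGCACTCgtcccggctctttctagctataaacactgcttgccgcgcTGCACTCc
MT1X: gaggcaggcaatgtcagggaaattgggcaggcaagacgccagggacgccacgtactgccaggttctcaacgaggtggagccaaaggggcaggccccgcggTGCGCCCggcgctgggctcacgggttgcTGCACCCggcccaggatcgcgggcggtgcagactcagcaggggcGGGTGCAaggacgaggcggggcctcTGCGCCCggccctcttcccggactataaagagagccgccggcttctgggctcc
MT1H: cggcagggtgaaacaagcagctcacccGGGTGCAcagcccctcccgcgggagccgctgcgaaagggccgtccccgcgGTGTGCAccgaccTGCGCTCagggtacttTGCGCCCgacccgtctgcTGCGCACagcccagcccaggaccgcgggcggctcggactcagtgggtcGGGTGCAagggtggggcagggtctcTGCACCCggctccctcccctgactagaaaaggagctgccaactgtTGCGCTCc
SLC30A1: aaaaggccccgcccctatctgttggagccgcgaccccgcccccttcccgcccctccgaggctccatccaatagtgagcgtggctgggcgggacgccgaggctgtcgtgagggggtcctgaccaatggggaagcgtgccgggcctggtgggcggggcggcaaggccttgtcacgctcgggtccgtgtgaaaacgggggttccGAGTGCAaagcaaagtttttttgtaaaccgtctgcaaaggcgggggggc

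The MT2A window held 7 matches, 5 on the strand of the gene and 2 on the other strand. MT1H had 8 matches and MT1X had 4. SLC30A1 had 1 match, on the strand opposite to the gene, and the MTF1 window (chr1:37859593-37859842, minus strand) had 0. Of 27305 RefSeq promoters of the same length, 24.7% held at least 1 such match, 0.366% held at least 4 and 0.121% held at least 5. The positions were partly shared within the family. A match lay at bases −53 to −47 before the start of both MT1X and MT1H and at −54 to −48 in MT2A, a match on the other strand lay at −78 to −72 in both MT1X and MT1H, and a match lay at −8 to −2 in both MT2A and MT1H. The core of the antioxidant response element, TGACNNNGC on either strand, was found 1 time each in MT2A, MT1X and SLC30A1 (11.03% of all promoters held at least 1). The TATA box core TATAAA, searched on both strands, was found 1 time each in MT2A and MT1X (11.1% of all promoters), at −29 to −24 and −30 to −25. No match overlapped another. A match describes letters in a window and is not evidence of binding, and the 250-base limit says nothing about elements farther away.

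**Figure D1:**
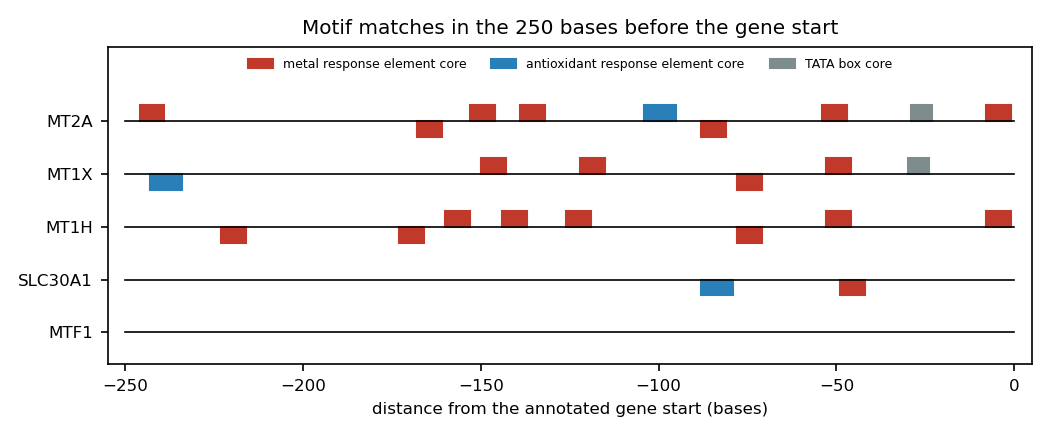
Matches to 3 short motifs in the 250 bases before the annotated start of 5 genes. The x axis is the distance from the gene start in bases, boxes above a line are matches on the strand of the gene and boxes below it are matches on the other strand. MT1H (8) and MT2A (7) hold the most matches to the metal response element core, MT1X holds 4, SLC30A1 holds 1 and MTF1 holds 0.

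Before normalization the 6 arrays had median signals between 63.6 and 65.6, and between 16200 and 18789 probes per array (33.2% to 38.5%) were detected at a detection p under 0.01. CT16 replicate 3 stood apart, with the fewest detected probes. Its normalized log2 values deviated from the mean of the other CT16 arrays with an SD of 0.98 over all tested probes, against 0.26 to 0.63 for the same measure on the other arrays. For CT16 replicates 1 and 2 that measure is taken against a mean that includes CT16 replicate 3. Control replicate 1 had the next fewest detected probes (17151) and the largest such SD of the control arrays (0.48). Differences without CT16 replicate 3, from a fit to the other 5 arrays, are therefore given beside the results, and control replicate 1 stays in that fit. Of the probes for PAGE5, the transfected gene, ILMN_2363141 had signals of 117, 120 and 171 on the CT16 arrays and 80.7, 84.6 and 94.2 on the control arrays. All CT16 values were higher, but the log2 difference of 1.10 ± 0.37 (SE) had an adjusted p of 0.586 in limma, over the threshold of 0.05, and without CT16 replicate 3 it was 0.71 (adjusted p = 0.161). A different tested PAGE5 probe, ILMN_1744656, differed by 0.02, and by −0.30 without that array, and ILMN_1695992 was detected on no array. Which PAGE5 probes lie within the transfected cDNA is not known here. The study itself reports CT16 mRNA by quantitative RT-PCR and CT16 protein by Western blot in its stably transfected WM-266-4 cells. Of 14 melanocyte lineage markers, 11 were tested and 0 passed the threshold, with summed normalized signals of 40616 to 44631 on CT16 arrays and 42583 to 46085 on control arrays. Markers of other cell types also moved. The 4 tested fibroblast markers summed to 2117 to 2858 on CT16 arrays and 5110 to 8072 on control arrays, while COL3A1 was detected on no array. The collagen gene COL1A2 (−1.82, adjusted p = 0.0871) and the matrix proteoglycan gene LUM (−1.86, adjusted p = 0.104) had negative log2 differences that missed the threshold with all arrays and passed it without CT16 replicate 3 (−1.63 and −1.65, adjusted p = 0.0275 and 0.0167, limma). THY1, which encodes a cell surface protein and is in the same list, was at least 8.84-fold higher in CT16 cells (adjusted p = 0.00833), and passed without that array too (adjusted p = 0.000964). The 4 tested immune cell markers summed to 1404 to 2190 in CT16 cells and 953 to 1391 in control cells, with the defining genes PTPRC and CD3E detected on no array. The 5 tested epithelial and endothelial markers summed to 338 to 716 on CT16 arrays and 384 to 495 on control arrays, with KRT5, KRT8, KRT19 and CDH5 detected on no array. CDH1, the epithelial cadherin, was detected on all control arrays and on no CT16 array, so it was at least 1.34-fold lower in CT16 cells. Its log2 difference was −1.12 (limma, adjusted p = 0.143), and −1.18 without CT16 replicate 3, where it passed (adjusted p = 0.0329). In this list 3 differences were negative and 2 positive, among them PECAM1 (0.55, adjusted p = 0.729, and 0.45 without CT16 replicate 3). Without that array the summed levels in CT16 cells were 43366 to 44631 for melanocyte, 2763 to 2858 for fibroblast, 1404 to 1405 for immune and 338 to 349 for epithelial and endothelial markers. The part of these shifts in the results on metallothioneins was not tested.

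MT2A, the major human metallothionein isoform in many tissues, had higher signals on all CT16 arrays, although its difference missed the threshold. Its probe ILMN_1686664 read 8789, 8050 and 13223 on the CT16 arrays, against 3505, 3009 and 3874 on the control arrays. Mean signals were 10021 ± 2798 in CT16 cells and 3463 ± 434 in control cells (SD, n = 3 each), all well under the highest signals of 29707 to 32331 on the arrays. Every CT16 array was above every control array, and replicate 3 was the highest of its group in both. After background correction and normalization the log2 difference, CT16 minus control, was 1.50 ± 0.26 (SE; 95% interval 0.90 to 2.10), which is 2.83-fold (1.86 to 4.28). With p-values adjusted over all 18156 tested probes by the Benjamini-Hochberg method, limma gave an adjusted p of 0.112. By the rank product, the measure that the methods of the study name, MT2A was at place 87 of the 18156 probes in the order of increases. The study itself lists MT2A among the genes raised by CT16 overexpression by its rank product. It also reports the change of MT2A by quantitative RT-PCR in CT16 overexpressing WM-266-4 cells. Without CT16 replicate 3 the log2 difference of MT2A on the arrays was 1.31 and passed in limma (adjusted p = 0.0318, range over all alternatives run 0.000200 to 0.714).

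MT1E, a family member that, like MT2A, is inducible by metals, was the only member past the threshold. ILMN_2173611 read 746, 819 and 1001 in CT16 cells, against 154, 159 and 174 in control cells. The groups lay far apart compared with the spread within either of them. The log2 difference was 2.78 ± 0.25 (95% interval 2.20 to 3.36), or 6.88-fold (4.60 to 10.3), with an adjusted p of 0.0101 (limma), and the probe was at place 12 in the rank product order. The share of all tested probes past the threshold in this direction was 0.138%, and it was 0.0661% for lower values in CT16 cells. The call changed with the arrays that entered the fit. It was lost without CT16 replicate 1 (adjusted p = 0.0743), control replicate 1 (0.0963), control replicate 2 (0.134) or control replicate 3 (0.0938), and held without CT16 replicate 2 (0.0286) or CT16 replicate 3 (0.000977). The log2 difference itself ranged only between 2.54 and 2.91 over these 6 omissions. The adjusted p ranged between 9.08e-07 and 0.134 over all alternatives run. A further probe annotated to MT1E, ILMN_1718968, was detected on no array, with signals of 65.2, 59.8 and 55.6 on CT16 arrays and 67.8, 56.6 and 60.2 on control arrays, so the call rests on 1 probe. Metallothionein transcripts are very similar in sequence, and to what extent a probe also binds those of its relatives was not tested.

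**Figure D2:**
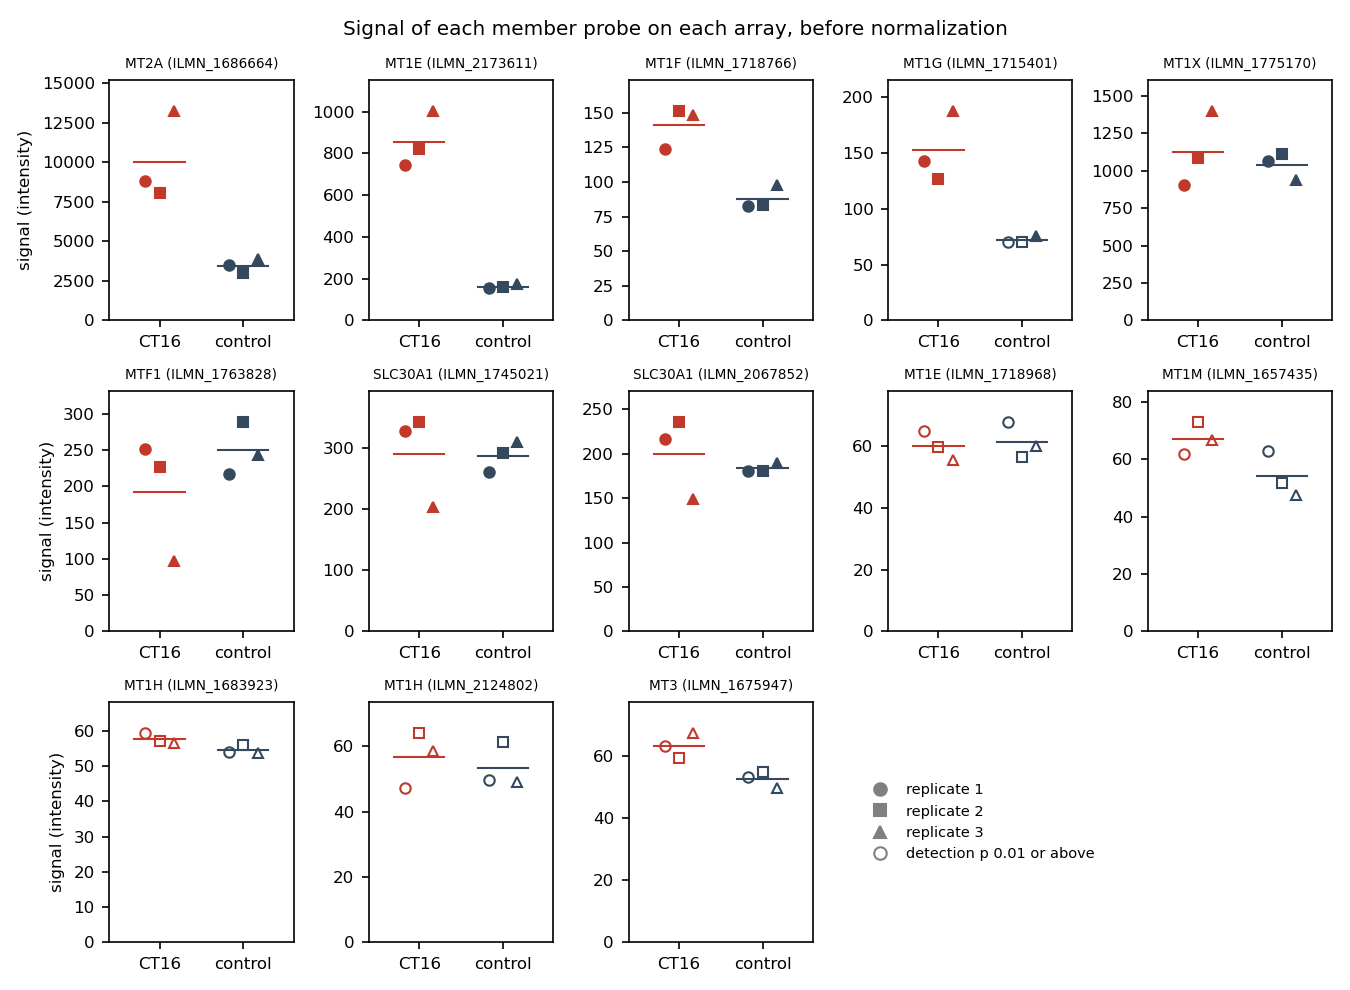
Signal of each of the 13 probes on each array before normalization, with CT16 arrays on the left and control arrays on the right of each panel. The y axis is linear intensity starting at 0, symbols give the replicate, horizontal bars give the group means and open symbols mark a detection p of 0.01 or above. MT2A, MT1E, MT1F and MT1G have all CT16 values above all control values, the groups overlap for MT1X, MTF1 and both SLC30A1 probes, and 5 probes are open throughout.

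MT1G and MT1F, also metal-inducible members of the MT1 group, were nearer to background but had the same order of groups. MT1G (ILMN_1715401) read 143, 126 and 187 in CT16 cells, against 70.6, 70.3 and 75.8 in control cells. It was detected on all CT16 arrays and on 1 of the 3 control arrays, where the detection p-values were 0.0583, 0.0444 and 0.00705, so the control level sits at the edge of background and the fold is uncertain. The log2 difference was 1.82 ± 0.36 (95% interval 0.98 to 2.66; limma, adjusted p = 0.162). It corresponds to 3.54-fold as measured, and to 3.13-fold where control values under the lowest detected value of their array were set to that value. Without CT16 replicate 3 it was 1.50 and passed (adjusted p = 0.0162, range over all alternatives run 0.000115 to 0.839).

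MT1F (ILMN_1718766) read 124, 151 and 148 in CT16 cells, against 82.4, 83.6 and 97.7 in control cells, and was detected on all arrays. Its log2 difference of 1.16 ± 0.28 (95% interval 0.50 to 1.81; 2.23-fold) missed the threshold in limma (adjusted p = 0.301), as it did without CT16 replicate 3 (0.95, adjusted p = 0.0805, range over all alternatives run 0.00346 to 1.00). In the rank product order of increases MT1G was at place 46 and MT1F at place 185.

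MT1X, at the far end of the cluster, did not share this pattern. ILMN_1775170 was well detected, at 902, 1082 and 1396 on CT16 arrays and 1064, 1110 and 939 on control arrays. The CT16 values lay on both sides of the control values. The log2 difference was 0.11 ± 0.27 (95% interval −0.52 to 0.74; limma, adjusted p = 0.974), and it turned to −0.11 without CT16 replicate 3. The interval does not reach the lower bound of that of MT2A (0.90), MT1E (2.20) or MT1G (0.98), but it overlaps that of MT1F, which starts at 0.50. MT1X was at place 9749 in the rank product order.

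The other 5 metallothionein probes were detected on no array and were not tested. MT1M (ILMN_1657435) read 61.9, 72.8 and 66.7 in CT16 cells and 63.0, 51.9 and 47.7 in control cells. MT3 (ILMN_1675947), known as a brain-enriched member of the family, read 63.2, 59.4 and 67.3 in CT16 cells and 53.2, 54.8 and 49.6 in control cells. Both were nominally brighter in CT16 cells, but these values are at the level of the negative control beads, with lowest detection p-values of 0.0223 for MT1M and 0.112 for MT3. When all probes were fitted without the detection filter, their log2 differences were 0.39 and 0.31 and neither passed (adjusted p = 0.836 and 0.674). MT1H read 56.7 to 59.3 in CT16 cells and 53.7 to 56.1 in control cells on ILMN_1683923, and 47.1 to 64.0 in CT16 cells and 49.7 to 61.4 in control cells on ILMN_2124802. Of these 8 metallothionein genes, MT1H, MT1M and MT3 were therefore not above background in either group.

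In all, 5 of the 10 metallothionein probes were tested, and all 5 differences were positive. The median over these 5 was 1.50, against −0.01 over all tested probes. CT16 arrays were all above control arrays for 4 of the 5, against 7.14% of all tested probes, and 1 of the 5 passed the threshold. At an unadjusted p under 0.05 there were 4 of these 5, against 6.37% of all tested probes. The 5 probes too dim to be tested are not part of these counts, and MT1G entered them mainly through the CT16 arrays. With detection required on all 6 arrays, which leaves out MT1G, the median over 4 probes was 1.33. CT16 arrays were all above control arrays for 3 of these 4, and 3 of the 4 had an unadjusted p under 0.05. These p-values are from the fit to all tested probes. The matching shares over every probe detected on all 6 arrays were not computed, so these counts of the 4 probes are not read as a result. Under all alternatives run, MT2A, MT1E, MT1F and, where it was tested, MT1G stayed positive, while MT1X was negative without CT16 replicate 3 (−0.11) and with array weights (−0.082).

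**Figure D3:**
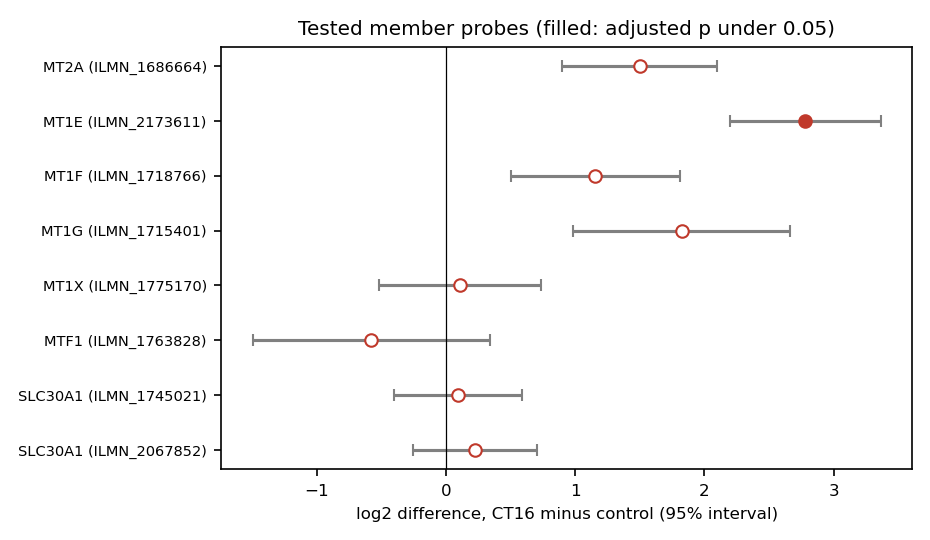
Log2 difference, CT16 minus control, of the 8 tested probes of the metallothioneins, MTF1 and SLC30A1, with 95% intervals from the limma fit over 6 arrays. The filled symbol is past an adjusted p of 0.05 (MT1E, 2.78). The intervals of MT2A, MT1F and MT1G lie above 0 and those of MT1X, MTF1 and SLC30A1 include 0.

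How far the metallothioneins moved relative to each other was compared by pairs. The log2 ratio of each pair of probes was formed on every array and its CT16 and control values were compared, which cancels what a pair shares on an array. Probes differ in brightness, so only the change of a ratio is read, not its level. With 3 arrays against 3 the smallest two-sided p of the exact permutation test is 0.1, so no pair could pass 0.05. Of the 10 pairs, 8 reached that smallest value (Benjamini-Hochberg adjusted over the 10 pairs, 0.125). The pairs share the same probes and are not independent. The share among pairs of other probes was not computed, so the count is not read as a result. The differences are therefore given as sizes. The MT1E to MT1X log2 ratio was −0.45 to −0.29 in CT16 cells and −3.18 to −2.81 in control cells, a difference of 2.67. For MT2A to MT1X it was 3.06 to 3.43 in CT16 cells and 1.51 to 2.17 in control cells, a difference of 1.39. The groups did not overlap in either ratio. MT2A to MT1E differed by −1.28, the larger log2 difference being that of MT1E. The ratios of MT2A to MT1F (0.34) and to MT1G (−0.33) had overlapping groups. Without CT16 replicate 3 these 5 differences were 2.66, 1.42, −1.23, 0.36 and −0.19.

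CT16 replicate 3 had the highest normalized value of its group for each of the 5 tested metallothionein probes. It lay above the mean of the other CT16 arrays by 0.49 for MT2A, 0.62 for MT1E, 0.74 for MT1F, 1.17 for MT1G and 0.69 for MT1X. The median of these, 0.69, compares with 0.12 over all tested probes on the same array, where the SD is 0.98. MT1X, whose groups overlapped, lay between MT1E and MT1F in this respect. The PAGE5 probe ILMN_2363141 was also highest on this array, and MTF1 and both SLC30A1 probes had their lowest CT16 value there. Without this array, 3 member probes passed the threshold (MT1E, MT2A and MT1G), and so did 199 of all tested probes in place of 37. The array also had the fewest detected probes, and the part of this in the shifts was not tested.

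**Figure D4:**
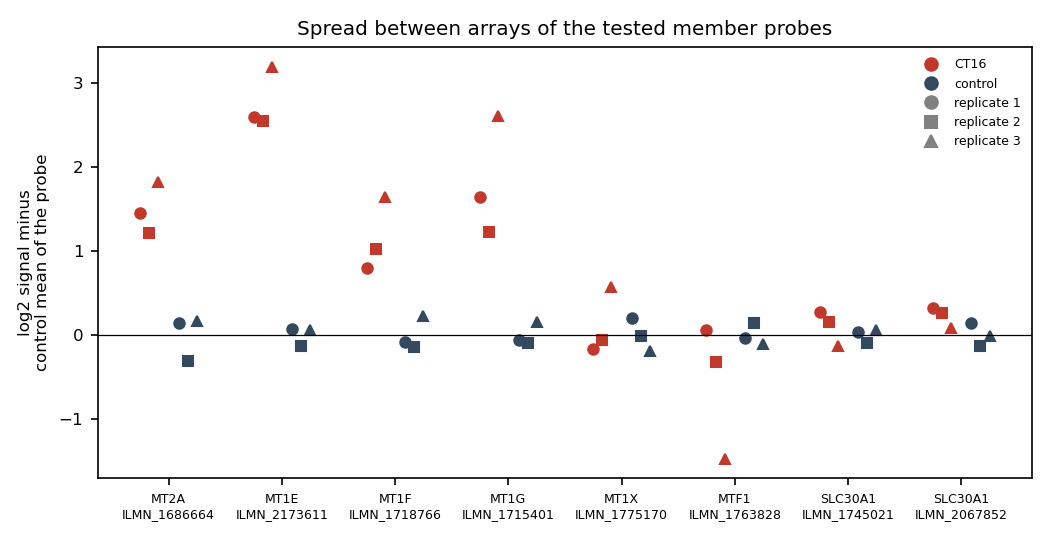
Normalized log2 signal of the 8 tested probes on each array, minus the control mean of the same probe, with CT16 arrays on the left and control arrays on the right of each position. Symbols give the replicate. CT16 replicate 3 (triangles) is the highest CT16 array for the 5 metallothionein probes and the lowest for MTF1 and SLC30A1.

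MTF1, the zinc-sensing activator of these genes, was not higher in CT16 cells. ILMN_1763828 read 252, 226 and 97.7 on CT16 arrays and 217, 288 and 243 on control arrays. In signal, CT16 replicates 1 and 2 lay among the controls and replicate 3 lay far below all the others. On the normalized log2 scale CT16 replicate 2 (7.32) was also under the lowest control (7.53). Replicate 3 was there 1.35 under the mean of the other CT16 arrays. The log2 difference was −0.58 ± 0.39 (95% interval −1.49 to 0.34; limma, adjusted p = 0.959), and it was −0.13 without CT16 replicate 3. MTF1 is activated through zinc binding, which its transcript level does not report.

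SLC30A1 encodes the zinc exporter ZnT1 of the plasma membrane and is a classical MTF1 target outside the cluster. Its probe ILMN_1745021 read 327, 342 and 203 on CT16 arrays and 261, 291 and 310 on control arrays, and ILMN_2067852 read 216, 235 and 149 on CT16 arrays and 180, 181 and 190 on control arrays. In signal, CT16 replicates 1 and 2 were above all control arrays on both probes and replicate 3 was below all of them. On the normalized log2 scale CT16 replicate 3 was at 7.20 on ILMN_2067852, above control replicates 2 (6.98) and 3 (7.10). The log2 differences of the 2 probes were 0.10 ± 0.21 (95% interval −0.40 to 0.59; adjusted p = 0.971) and 0.22 ± 0.20 (−0.25 to 0.70; adjusted p = 0.959, limma). Without CT16 replicate 3 they were 0.21 and 0.29 and did not pass (adjusted p = 0.658 and 0.554). Both upper bounds lie below the lower bound of the interval of MT2A (0.90). With median scaling in place of quantile normalization ILMN_1745021 was at −0.025. With array weights ILMN_1745021 was at 0.28 and ILMN_2067852 at 0.39, and neither passed (limma, adjusted p = 0.148 and 0.0551).

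In RefSeq order the cluster on chromosome 16 runs MT4, MT3, MT2A, MT1L, MT1E, MT1M, MT1A, MT1B, MT1F, MT1G, MT1H and MT1X, with pseudogenes between them. Of its metallothionein genes and pseudogenes, 11 had a named probe and 5 were tested. MT1B, MT1L and MT4, none of them among the 10 genes, were detected on no array. The probes with differences above 1 (MT2A, MT1E, MT1F and MT1G) were therefore spread over the cluster. MT1F and MT1G follow each other, and undetected or unmeasured genes lie between MT2A and MT1E, between MT1E and MT1F, and between MT1G and MT1X. The 5 genes on each side of the cluster were looked at after the metallothionein values were seen. Of these 10 neighbours 6 were tested (GNAO1, NUDT21, OGFOD1, BBS2, NUP93 and CETP), and their log2 differences lay between −0.36 and 0.13, with 0 past the threshold and 0 at an unadjusted p under 0.05 in limma, where every adjusted p was 0.959 or higher. When CT16 replicate 3 was left out they lay between −0.44 and 0.18, with 0 at an unadjusted p under 0.05 and a lowest adjusted p of 0.473.

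No further tested zinc transporter of the ZnT or ZIP family passed the threshold, and the medians of the lists depended on CT16 replicate 3. Each gene was represented by its brightest tested probe, 0.24% of 11264 genes passed the threshold in either direction, and the median over all genes was −0.03. Of 9 further zinc exporters of the ZnT family (SLC30), which move zinc out of the cytosol, 5 were tested and 0 passed in either direction, with a median of −0.19. With all arrays 2 of the 5 differences were positive, and without CT16 replicate 3 all 5 were, with a median of 0.16 and still 0 past the threshold. The brightest, SLC30A5 and SLC30A9, differed by 0.64 ± 0.20 (adjusted p = 0.519) and −0.22, and by 0.64 and 0.40 without that array. Of 14 zinc importers of the ZIP family (SLC39), 11 were tested and 0 passed, with a median of 0.00 (0.07 without CT16 replicate 3). The brightest, SLC39A1 and SLC39A3, differed by 0.02 and 0.26, and by −0.22 and −0.06 without that array.

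Copper handling and stress genes were likewise without calls. Of 13 copper genes 12 were tested and 0 passed, with a median of 0.11 (0.03 without CT16 replicate 3). SOD1, a copper and zinc enzyme that removes superoxide, differed by −0.01, and COX17, a mitochondrial copper chaperone, by −0.12. Of 15 genes of the metal and oxidative stress response, 13 were tested and 0 passed, with a median of −0.14 that turned to 0.09 without CT16 replicate 3. The quinone reductase NQO1 differed by −0.18 and the chaperone HSP90AA1 by −0.25, and without that array by 0.09 and 0.31. HMOX1, the heme oxygenase that responds to metals and oxidants, differed by 0.51 ± 0.38 (0.09 without that array), and it is named here after its value was seen. In these 4 lists together 41 of 51 genes were tested, 0 passed, and 4 had an unadjusted p under 0.05, against 6.37% of all tested probes. These 4, named after their values were seen, were SLC30A5, the importer SLC39A11 (0.54), the copper pump ATP7B (−0.70) and the cystine transporter SLC7A11 (0.58), with adjusted p-values of 0.519, 0.729, 0.554 and 0.777 (limma). The median over the 41 genes was −0.01, against 1.50 over the 5 tested metallothionein probes. The fit that left out CT16 replicate 3 gave 0.07, against 1.31 over the metallothionein probes. In that fit 0 of the 41 passed the threshold and 5 had an unadjusted p under 0.05. The share of all tested probes under 0.05 in that fit was not computed, so the count has nothing to be set against. The intervals of single genes are wide, and smaller changes would not have been detectable with 3 arrays a group.

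Targets of other known inducers of metallothioneins were read in the same way. Of 8 genes listed as glucocorticoid receptor targets 5 were tested and all 5 were lower in value in CT16 cells, with a median of −0.38, but 0 passed and 0 had an unadjusted p under 0.05 (limma, lowest adjusted p = 0.959). The 5 include NR3C1 (−0.20), the gene of the receptor itself. The brightest of the 5 were the kinase SGK1 (−0.51) and the transcription factor KLF9 (−0.80), at −0.05 and −0.09 without CT16 replicate 3. In that fit all 5 remained negative and 0 passed (median −0.45). TSC22D3 (−0.53) and NR3C1 (−0.63), named after their values were seen, had an unadjusted p under 0.05 there (limma, adjusted p = 0.251 and 0.368). The share of all tested probes under 0.05 in that fit was not computed. Of 10 genes of the STAT3 response, which follows interleukin 6 family cytokines, 9 were tested, 0 passed and the median was 0.04 (0.08 without CT16 replicate 3). The transcription factors CEBPB and STAT3 differed by 0.19 and −0.17. CEBPD, a related transcription factor singled out after its value was seen, differed by 1.80 ± 0.32 (limma, adjusted p = 0.127), and by 1.61 without that array (adjusted p = 0.0585), and SOCS3, a feedback inhibitor of the same pathway, was detected on no array.

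**Figure D5:**
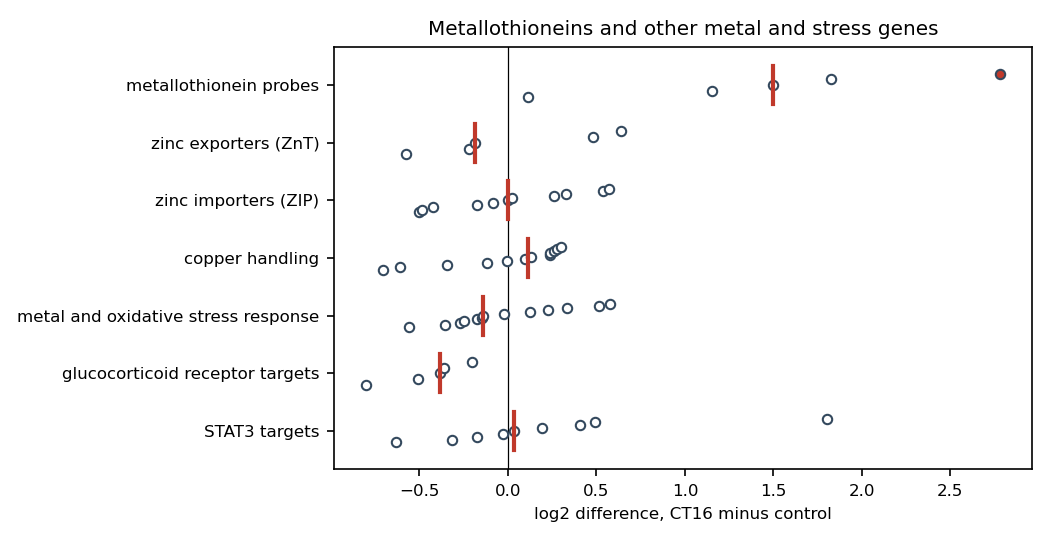
Log2 difference, CT16 minus control, of the 5 tested metallothionein probes and of the tested genes of 6 lists. Each circle is a probe or gene, filled where past an adjusted p of 0.05, vertical offsets only separate the circles, and the bars mark medians. The metallothionein median is 1.50 and the medians of the lists lie between −0.38 and 0.11.

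The probes whose normalized profile over the 6 arrays was nearest to that of MT2A were sought by the root mean square distance after each profile was centred on its own mean. The 5 nearest named genes were EXOG (distance 0.142), FGFRL1 (0.142), SOX8 (0.146), CYB5R2 (0.156) and DUSP5 (0.173), with log2 differences of 1.39, 1.49, 1.62, 1.58 and 1.44. With all arrays none of them passed the threshold (limma, adjusted p = 0.252, 0.137, 0.0908, 0.142 and 0.105). Without CT16 replicate 3 the differences were 1.09, 1.23, 1.39, 1.27 and 1.26, and all but EXOG passed (adjusted p = 0.0805, 0.0274, 0.0178, 0.0280 and 0.0274). These 5 genes were chosen for likeness to MT2A on the same arrays, so their differences and calls are not separate evidence. EXOG is a mitochondrial nuclease, SOX8 a transcription factor related to SOX10, and DUSP5 a phosphatase of the kinase ERK. Within the family, MT1F was at place 41 (0.260) and MT1G at place 84 (0.308) among all tested probes, while MT1E was at place 2767 (0.652), with its larger difference, and MT1X was at place 5413 (0.730). The order is a description with no test, over 6 arrays that fall into 2 groups.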

How the data were processed

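The authors prepared biotin-labelled cRNA and hybridized it to Illumina Human-6 bead arrays, 1 per replicate. They deposited probe intensities that were neither normalized nor background-subtracted, with a detection p-value per probe and array in the same deposited table, and a table of quantile normalized intensities. Of the normalized values, 99.998% differed by under 1% from a quantile normalization of the first table. The study ranked probes by rank product, and each member's place in such an order is given. The probes' genome build is not given in the sources used.

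Signals were background-corrected in limma 3.58.1 (R 4.3.3) by nec, which infers the negative controls from detection p-values, then raised by 16, quantile normalized and taken to log2. The 18156 of 48803 probes with a detection p under 0.01 on at least 3 of 6 arrays were tested with lmFit and eBayes, two-sided, with the plasmid as the only term, and p-values were adjusted over all tested probes by the Benjamini-Hochberg method at a threshold of 0.05. This passed 37 probes (25 higher, 12 lower in CT16 cells). The fit was tested on simulated data. Where no array of a group detected a probe, the fold is a lower bound, taken against that array's lowest detected value unless the probe itself read higher. A platform annotation table gave 1 symbol for 27578 probes and several for 13, while 21212 were not listed. Precision is limited by the 3 arrays per group, and no slide or scan date was used as a batch.

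The genes and gene lists were chosen with earlier results of these data known. Named are all probes of the 10 genes, the transfected gene, up to 4 called members of each list or, with none called, its 2 brightest, and the 5 genes nearest to MT2A. Alternatives covered background correction, offset, normalization, detection filter, each array left out, the replicate number as a block, the prior and array weights. Promoter sequences are those of RefSeq, cut to the 250 bases before the start.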

Additional observations from a re-analysis of the deposited data

How the results depend on the processing

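The count of all probes past the threshold was 37. It was 7 with detection required on all 6 arrays, 3 with a replicate block, 1887 with array weights and between 4 and 199 when an array was left out. The count of member probes past the threshold was 1, and it was 0 with the replicate block, 4 with array weights and between 0 and 3 when an array was left out, the highest without CT16 replicate 3. The median over the tested metallothionein probes was 1.50 and fell to 1.12 without background correction, 1.18 with an offset of 50 and 1.13 on the authors' normalized values, and it was 1.31 to 1.65 when an array was left out. The 3 values that changed sign were SLC30A1 on ILMN_1745021 (−0.025 with median scaling) and MT1X (−0.11 without CT16 replicate 3, −0.082 with array weights, and −0.11 to 0.26 when any 1 array was left out). Of 127 values of single probes under the alternatives, 114 kept their direction and side of the threshold. All 5 that lost a call were of MT1E, with a log2 difference of 2.78 and an adjusted p of 0.104 with the replicate block, and the 5 that gained one were of MT2A and MT1G without CT16 replicate 3 and of MT2A, MT1F and MT1G with array weights. The weights ranged between 0.0710 for CT16 replicate 3 and 4.71 for control replicate 2, and were estimated gene by gene because the REML estimate did not converge. The deviations of arrays with the same replicate number from their group means correlated at −0.62, 0.61 and −0.59 across probes, positive for replicate 2 only, so the numbers were not taken as pairs. Apart from the changes tied to fewer arrays or probes, the cause was not tested. Dim probes such as MT1G in control cells are limited by signal over background.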
